A study of Caenorhabditis elegans with 28 samples.

Results

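The genes described here are the numbered members of the *C. elegans* nuclear hormone receptor family, taken as every gene of the counts table whose name is nhr- followed by a number. The 3 members *nhr-23*, *nhr-25* and *nhr-85* were set aside, and a mean raw count of at least 10 over all 28 libraries was required. Of 268 such names in the table, 265 were left after the exclusion, and all but 89 of these reached the minimum and are the members described here, out of 20392 genes in all. Of the 89 below it, 17 had no count in any library. The minimum separated *nhr-225* (mean count 10.46) and *nhr-27* (10.64) from *nhr-263* (9.68) and *nhr-245* (8.14). Every member passed the filter on low counts in every fit.

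Nuclear hormone receptors are transcription factors that bind DNA through a zinc finger domain and carry a second domain that can hold a small lipophilic ligand such as a steroid or a fatty acid. Nematodes have expanded this family far beyond that of insects or vertebrates, mostly with receptors related to the vertebrate receptor HNF4. Receptors with known roles act in molting and developmental timing, in fat and propionate metabolism, and in responses to foreign compounds, hypoxia and pathogens, whereas for many members no role is established. Roles are given below only for members where one is well known.

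The libraries were made from polyA RNA of whole larvae of 2 strains, wild type N2 and HW3527, which carries *ebax-1(tm2321)* on chromosome IV. *ebax-1* encodes a substrate receptor of a cullin-RING ubiquitin ligase. Larvae of both strains were hatched without food, plated as synchronized L1 larvae, kept at 25°C without treatment and harvested every hour from 18 h to 31 h, which gave 14 libraries per genotype and 1 library of pooled animals per hour and genotype. The mutant is 1 strain, and no hour was repeated, so the errors below measure the scatter of hourly libraries around a fitted curve rather than repeats of an hour. Because whole animals were sampled, fewer cells of a type and less RNA per cell cannot be told apart.

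Total counts ranged from 5120921 to 9604238 (wild type) and from 5701773 to 9304062 (mutant), and no pair of libraries was identical. Levels are given as CPM, a gene's share of the counts of its library scaled to a total of 1000000. *ebax-1* itself had a median of 69.9 CPM in the libraries labelled wild type and 25.8 CPM in those labelled mutant, and the mutant library was the lower in 11 of the 14 hours, and the ranges overlapped. The members together took 0.195% to 0.315% of a wild-type library (median 0.258%) and 0.255% to 0.331% of a mutant library (median 0.284%). Most were rare transcripts. A member's median over the wild-type libraries was 6.47 CPM in the middle of the family, with the middle 50% of members between 3.23 and 12.4 CPM and extremes of 0.619 and 229 CPM. CPM per kilobase of exon allows levels of different genes to be compared. On this scale the highest wild-type means were those of *nhr-114* (144 CPM per kilobase), *nhr-68* (83.4) and *nhr-49* (48.4). They were followed by *nhr-31* (44.95) and *nhr-97* (35.1), against a median of 4.80 over the members. *nhr-114* protects the germ line through methionine cycle metabolism, *nhr-68* acts in propionate breakdown, *nhr-49* controls fatty acid desaturation and oxidation, and *nhr-31* shapes the excretory cell. Chromosome V held 63.1% of the members against 25.2% of all genes, and the rest lay on chromosomes IV (25), X (16), II (11), I (8) and III (5). The members formed 53 pairs of direct neighbours, and 45 of these pairs were on chromosome V.

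The first question was which receptors oscillate with the molting cycle. The libraries of each genotype were fitted with a 7 h cosine wave of free phase on top of a straight line in hour. A gene was called rhythmic where the wave had an adjusted p under 0.01 and its amplitude, the height of the peak above the line, was at least 0.5 log2. In wild type 17 members were rhythmic, 9.66% against 19.5% of all genes tested. In the mutant 25 members were rhythmic, 14.2% against 18.3%. Rhythm was called in both genotypes for 15 members, where the share over all genes was 15.7%. A further 14 members in wild type (7.95%, against 10.6% of all genes) and 29 in the mutant (16.5%, against 14.1%) passed the test with an amplitude under 0.5 log2. Over all members the median amplitude was 0.262 log2 (wild type) and 0.269 log2 (mutant), beside 0.254 and 0.201 log2 over all genes.

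**Figure D1:**
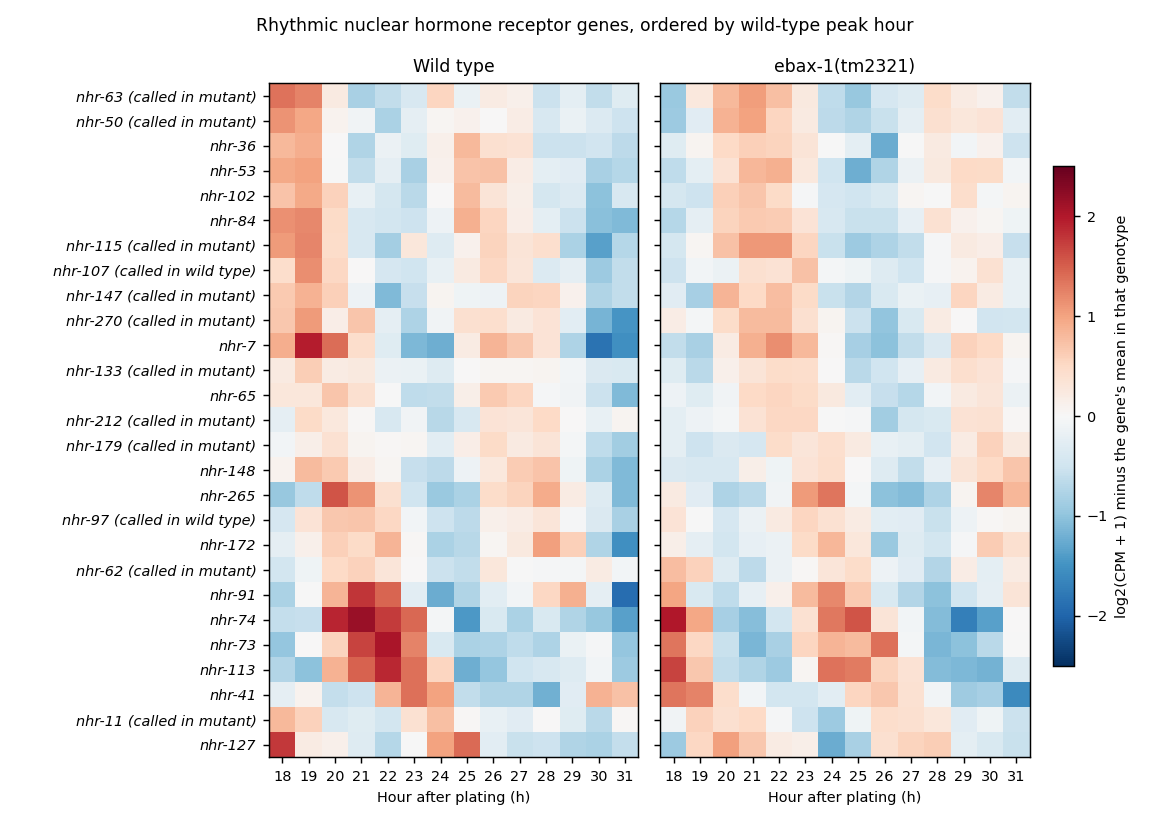
Heat map of the 27 members called rhythmic in at least 1 genotype, with hours after plating (h) across and genes down, ordered by fitted wild-type peak hour. Color is log2(CPM + 1) minus the gene's mean in that genotype, 1 library per column. Bands of high values in wild type mostly return about 3 h later in the mutant, and the color is mostly more intense in the first cycle than in the second.

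*nhr-73* on chromosome I had the largest wild-type amplitude of the family, 2.60 ± 0.41 log2 (SE) with a fitted peak at 22.0 h (adjusted p = 0.000143). Its level was low throughout. It had no count at 18 h, which allows up to 0.355 CPM, reached 7.0 CPM at 22 h from 57 counts (95% exact interval of counting error 5.30 to 9.07 CPM), fell to 0.124 CPM at 25 h and regained only 0.906 CPM at 30 h. In the mutant it stood at 6.77 CPM at 18 h, 0.387 CPM at 21 h, 7.02 CPM at 26 h and 0.405 CPM at 28 h, and its mutant amplitude was 1.64 ± 0.28 log2. At such counts the fitted amplitude depends on the small count that the model adds.

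*nhr-74*, the direct neighbour of *nhr-73* on the other strand, followed the same course. In wild type it went from 1.90 CPM at 18 h to 18.5 CPM at 21 h and back to 0.620 CPM at 25 h, with no later library above 2.38 CPM, and its wild-type rhythm call was lost without the library of 21 h or 25 h. In the mutant it fell from 23.6 CPM at 18 h to 1.93 CPM at 21 h and returned to 17.2 CPM at 25 h. The fitted peaks of both neighbours differed by 0.28 h (wild type) and 0.21 h (mutant). *nhr-113*, also on chromosome I, had the same single large wave in wild type, with 18.4 CPM at 22 h and no more than 3.99 CPM from 25 h on. In the mutant it had maxima of 29.0 CPM at 18 h and 22.8 CPM at 24 h. Mutant peaks came about 3 h later, as given below. Mutant libraries before 21 h thus had no wild-type library of matched stage, and wild-type libraries after 28 h had no mutant one. The number of waves of these genes can therefore not be compared between genotypes. The amplitude of *nhr-113* was 1.53 ± 0.24 log2 (wild type) and 1.30 ± 0.20 log2 (mutant).

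*nhr-265*, also on chromosome I, kept its rhythm over both cycles. Wild-type maxima were 5.36 CPM at 20 h and 3.08 CPM at 28 h with a trough of 0.125 CPM at 24 h, and mutant maxima were 5.05 CPM at 24 h and 4.63 CPM at 30 h around a trough of 0.132 CPM at 27 h. Its amplitude was 2.20 ± 0.33 log2 (wild type) and 2.10 ± 0.21 log2 (mutant), the largest mutant amplitude of the family.

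**Figure D2:**
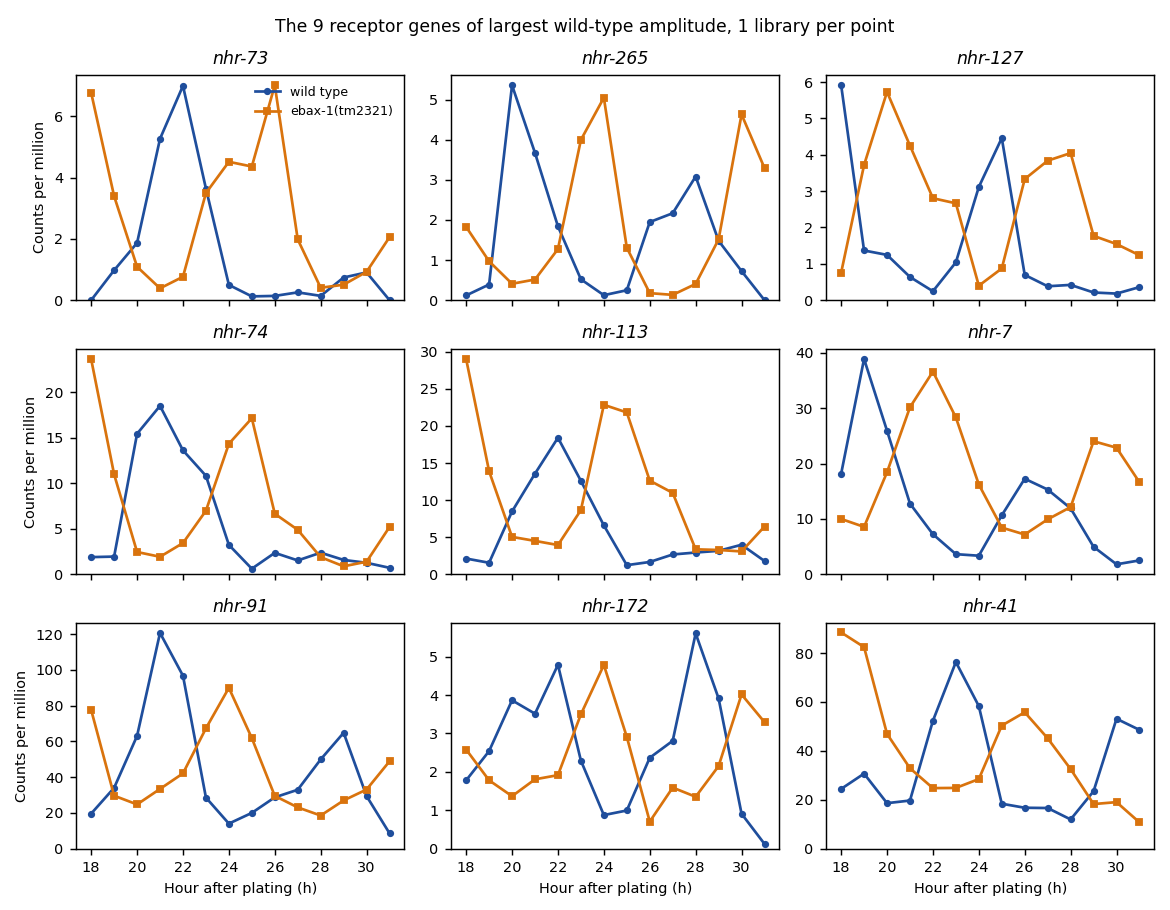
Levels (CPM) of the 9 members with the largest wild-type amplitude by hour after plating (h), 1 library per point, wild type in blue circles and *ebax-1(tm2321)* in orange squares. *nhr-73*, *nhr-74* and *nhr-113* show a single large wave in wild type, whereas *nhr-265*, *nhr-91*, *nhr-7* and *nhr-41* show a wave in each cycle, and the mutant waves come later than the wild-type waves.

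Among the abundant rhythmic members, 2 have counterparts outside nematodes. *nhr-91*, a counterpart of the vertebrate germ cell nuclear factor, rose from 19.5 CPM at 18 h to 121 CPM at 21 h in wild type and again to 64.8 CPM at 29 h (amplitude 1.27 ± 0.13 log2, peak at 21.3 h). In the mutant it reached 89.9 CPM at 24 h, fell to 18.5 CPM at 28 h and stood at 48.8 CPM at 31 h, and its mutant amplitude was 0.88 ± 0.10 log2. *nhr-41*, a counterpart of the vertebrate testicular receptors, ran behind *nhr-91*. It reached 76.3 CPM at 23 h and 53.1 CPM at 30 h in wild type, with 11.9 CPM at 28 h in between, and its fitted wild-type peak was at 23.3 h. In the mutant its amplitude was 0.80 ± 0.13 log2 against 1.14 ± 0.17 log2 in wild type.

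*nhr-7* on chromosome IV peaked earlier. It had 38.9 CPM at 19 h, 3.36 CPM at 24 h and 17.3 CPM at 26 h in wild type (amplitude 1.33 ± 0.12 log2, peak at 19.6 h). The mutant maxima were 36.6 CPM at 22 h and 24.0 CPM at 29 h. *nhr-127* on chromosome V had a fitted wild-type peak at 24.7 h, which on a 7 h cycle lies next to the earliest hour sampled, with 5.92 CPM at 18 h and 4.46 CPM at 25 h around a minimum of 0.245 CPM at 22 h. Its amplitude was 1.70 ± 0.31 log2 (wild type) and 1.16 ± 0.21 log2 (mutant). *nhr-172*, also on chromosome V, had its highest wild-type level at 28 h. The amplitude of *nhr-172* was 1.21 log2 (wild type) and 0.84 log2 (mutant), and both calls held in all 8 alternative fits and with each hour left out.

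A fitted peak is given as the first one at or after 18 h. Of the 17 members rhythmic in wild type, 7 had a fitted peak from 18 h to 20 h, 6 from 20 h to 22 h, 3 from 22 h to 24 h and 1 after 24 h. Among the 27 members rhythmic in either genotype, the 17 on chromosome V had a median wild-type peak at 19.4 h (middle 50% of members from 18.7 to 19.9 h, extremes 18.2 and 24.7 h), and the 10 on other chromosomes a median at 21.5 h (middle 50% from 21 to 22.2 h, extremes 19.6 and 24.3 h). Of the 17 on chromosome V, 9 were called rhythmic in wild type and 16 in the mutant. Some of these wild-type peaks thus come from fits without a called rhythm. This grouping by chromosome was chosen after the values were seen and was not tested, and peaks of all rhythmic genes were not compared by chromosome. The peak at 24.7 h is that of *nhr-127*, which on the 7 h cycle lies next to the earliest peaks. Apart from *nhr-127* (1.70 log2 in wild type), the early genes of chromosome V were of modest amplitude. They included the neighbours *nhr-84* and *nhr-102* (0.78 ± 0.13 and 0.75 ± 0.12 log2 in wild type, fitted peaks 0.03 h apart) and *nhr-53* (0.98 ± 0.21 log2), which had 5.08 CPM at 19 h, 0.729 CPM at 23 h and 4.03 CPM at 26 h. The wild-type call of *nhr-53* was lost without the library of 21, 23, 25 or 26 h. The neighbours *nhr-50* and *nhr-63* were called rhythmic in the mutant, with amplitudes of 0.77 ± 0.12 and 0.88 ± 0.12 log2, and not in wild type, with 0.45 ± 0.14 and 0.72 ± 0.18 log2, although DESeq2 called *nhr-63* there too. Of the 53 neighbouring pairs, both genes were rhythmic in 2 pairs (wild type) and 3 pairs (mutant), where 9.66% and 14.2% of members were rhythmic. Neighbouring pairs among all genes were not counted, and whether neighbours share a rhythm was not tested. The sources used here do not state how reads shared between near-identical neighbours were assigned, and similar courses of neighbours are uncertain to that extent.

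Mutant peaks came later, and fitted amplitudes were mostly smaller in the mutant. For the 15 members rhythmic in both genotypes the mutant peak came a median of 2.79 h later (range 2.59 to 3.32 h), beside 2.81 h over all 2038 genes rhythmic in both. Their amplitude in the mutant was a median of 0.756 times that in wild type, beside 0.749 over all genes, and it was smaller in 13 of the 15. The exceptions were *nhr-53* (ratio 1.02) and *nhr-74* (1.02). The difference itself was tested in a fit of all 28 libraries with mutant hours moved back by 3 h. No member passed (0.224% of all genes did), by edgeR, DESeq2 or limma, although 18 members had an unadjusted p under 0.05 with each tool. The lowest edgeR value was that of *nhr-133* (adjusted p = 0.0932), with an amplitude of 0.20 ± 0.08 log2 (wild type) and 0.55 ± 0.07 log2 (mutant).

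The first of both cycles sampled was the higher for most of these genes. The highest CPM of 18 to 24 h exceeded that of 25 to 31 h in 16 of 17 members rhythmic in wild type, with a median ratio of the second maximum to the first of 0.753, and in 22 of 25 in the mutant, with 0.776. The wild-type exception was *nhr-172*, with maxima of 4.79 CPM and then 5.61 CPM. Over all rhythmic genes the first maximum was the higher in 62.6% in wild type and 68.8% in the mutant, with median ratios of 0.889 and 0.882.

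The second question was which receptors rose or fell over the hours sampled. A gene was called where the slope of the line had an adjusted p under 0.01 and the line changed by 1 log2 or more. In wild type 16 members fell (9.09% of the family, 6.14% of all genes) and 2 rose (1.14%, against 14.9% of all genes). In the mutant 5 fell (2.84%, against 4.48%) and 1 rose (0.568%, against 8.31%). Without the wild-type library of 31 h the wild-type count of falling members was 8, and over 18 to 28 h alone it was 4 (2.92% of all genes), while 5 members fell in the mutant over 21 to 31 h alone (2.47%). A further 18 members in wild type (10.2%) and 24 in the mutant (13.6%) passed the test with a change under 1 log2, each of them negative. Falls of that size were called for 5.69% (wild type) and 7.38% (mutant) of all genes, and rises for 5.27% and 5.29%. Over the whole family the fitted change was below 0 in 85.8% of members in wild type and 80.7% in the mutant, against 49.9% and 52.3% of all genes. The family's median change was -0.42 log2 (wild type) and -0.36 log2 (mutant), where the medians of all genes were 0.0011 and -0.026 log2. Levels are shares of a library, and markers of some tissues moved over the same hours. Falls were called for 6 (wild type) and 5 (mutant) of 10 neuron markers and rises for none, and their summed level ranged from 599 to 1193 CPM (wild type) and 755 to 1142 CPM (mutant). Rises were called for 9 (wild type) and 8 (mutant) of 10 germ line markers, with summed levels of 529 to 1546 CPM and 439 to 1391 CPM. None of these markers was at 0 in every library, and their part in the family's decline was not tested.

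*nhr-67*, the counterpart of the *Drosophila* receptor tailless and a regulator of anchor cell and neuron fates, was the member that fell in both genotypes. It had 6.04 CPM at 18 h and 1.20 CPM at 31 h in wild type (-2.16 ± 0.25 log2, adjusted p = 7.86e-06), and 8.06 and 1.37 CPM at the same hours in the mutant (-1.60 ± 0.27 log2). The call held with each hour left out. The 2 largest wild-type declines were those of *nhr-73* (-5.22 ± 0.94 log2) and *nhr-74* (-4.18 ± 0.78 log2), whose single wave came early, and *nhr-113* changed by -2.75 ± 0.58 log2. Over 18 to 28 h alone all 3 lost the call, with changes of -4.12, -2.85 and -1.75 log2. These 3 and *nhr-7* (-1.44 ± 0.28 log2) were the 4 members both rhythmic and falling in wild type. *nhr-277* was scarce, from 2.96 CPM at 18 h to 0.360 CPM at 31 h with no count at 28 h, which allows up to 0.420 CPM, and changed by -2.72 ± 0.71 log2, a call lost without the library of 18, 20, 21, 22, 25, 26, 30 or 31 h.

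*nhr-6*, the counterpart of the vertebrate NR4A receptors that is needed to form the spermatheca, had fitted changes of opposite sign. In wild type it stayed between 8.23 and 18.4 CPM from 18 h to 27 h and then fell to 0.959 CPM at 31 h (-2.78 ± 0.67 log2, adjusted p = 0.00413). In the mutant it started at 2.26 CPM, reached 15.8 CPM at 27 h and was back at 4.53 CPM at 31 h (1.43 ± 0.55 log2, adjusted p = 0.0525). The wild-type call was lost without the libraries of 22, 29, 30 or 31 h, and over 18 to 28 h alone the change was -0.86 log2. The mutant change was 0.16 log2 over 21 to 31 h alone.

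Among the falling members of the mutant, *nhr-270* changed by -1.68 ± 0.26 log2, *nhr-115* by -1.51 ± 0.28, *nhr-41* by -1.16 ± 0.30 and *nhr-91* by -1.06 ± 0.24. All 4 were also rhythmic there. Their wild-type changes were -1.28, -1.03, -0.77 and -1.16 log2, none of which was called. The mutant call of *nhr-41* was lost without the library of 18, 19, 22, 23, 25, 26, 27, 29 or 31 h, and that of *nhr-91* without 18, 21, 30 or 31 h. Of the 16 members that fell in wild type, 15 had a negative change in the mutant, with a median of -0.80 log2. These members were chosen by their wild-type change. No member's change differed between genotypes by edgeR (19 had an unadjusted p under 0.05, and 0.175% of all genes were called). The lowest adjusted p belonged to *nhr-6* (difference 4.19 ± 0.92 log2, adjusted p = 0.0265) and *nhr-73* (4.75 log2, adjusted p = 0.0421). DESeq2 called 1 member, *nhr-6*, with an adjusted p of 0.000281, and limma called none. The tests used all hours with mutant hours moved back by 3 h, so the mutant lines covered earlier stages than the wild-type lines. Over 18 to 28 h in wild type *nhr-6* changed by -0.86 log2 and *nhr-73* by -4.115 log2. Over 21 to 31 h in the mutant they changed by 0.1551 and -1.275 log2.

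*nhr-76*, which acts in the intestine in fat loss driven by serotonin, rose in both genotypes. It went from 2.13 CPM at 18 h to 15.9 CPM at 31 h in wild type (1.67 ± 0.33 log2) and from 4.73 to 12.9 CPM in the mutant (1.5 ± 0.24 log2). *nhr-234* on chromosome II rose in wild type, from a minimum of 0.491 CPM at 22 h to 38.3 CPM at 29 h and back to 13.2 CPM at 31 h (5.56 ± 1.1 log2, adjusted p = 0.000972). In the mutant it stayed at or below 3.16 CPM until 29 h and reached 17.0 CPM at 31 h (1.47 ± 0.99 log2, not called). Neither was called in wild type when the fit was limited to 18 to 28 h.

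**Figure D3:**
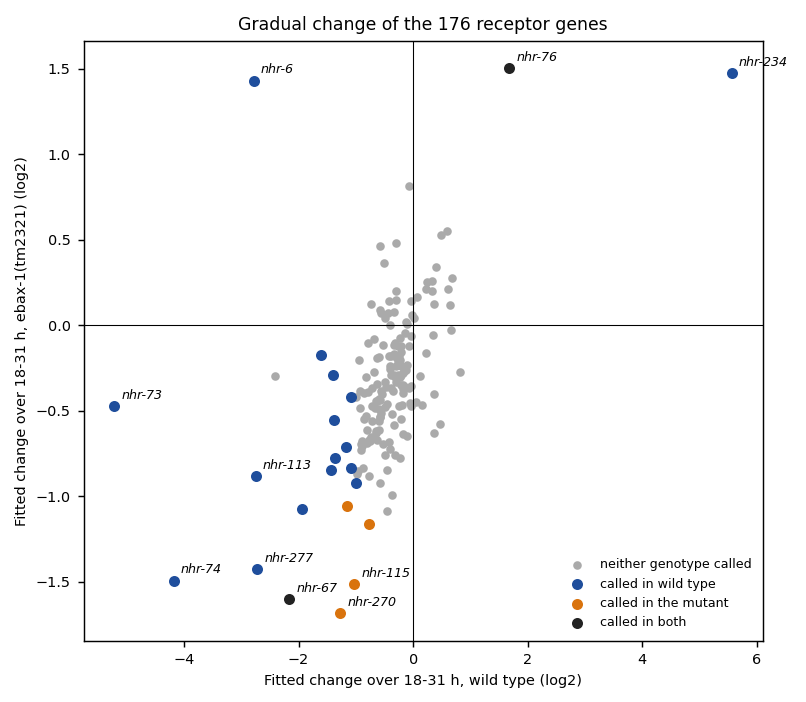
Fitted change over 18-31 h (log2) of the members in wild type (horizontal axis) and *ebax-1(tm2321)* (vertical axis), with colors for the genotype in which the change was called. Most points lie below 0 on both axes, *nhr-67* and *nhr-76* are the members called in both, and *nhr-6* lies at -2.78 on the wild-type axis and at 1.43 on the mutant axis.

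The third question was which receptors differ between genotypes at the same stage. Because mutant rhythms lagged by about 3 h, wild type at 18 to 28 h was set against the mutant at 21 to 31 h, 11 pairs in all, and the mean difference was tested with a spline in matched hour for each genotype. In the mutant 16 members were higher (9.09%, against 9.73% of all genes) and 3 were lower (1.70%, against 9.16%). The median difference over the family was 0.095 log2 and was above 0 in 66.5% of members, beside 0.036 log2 and 57.4% over all genes. A test of any difference, mean or shape, called 3 members (5.80% of all genes), *nhr-178*, *nhr-232* and *nhr-57*, all of them also called for their mean, and 0 to 2 members with each pair left out. The count was 7 by DESeq2, 5 by limma, 17 with a delay of 2 h and 12 with a delay of 4 h. Shares of all genes under these alternatives are not given here, so these counts cannot be set against all genes. Between 7 and 13 members were higher when each pair was left out in turn, with 7 without the pair at wild-type 24 h or 25 h. The 8 members *nhr-178*, *nhr-193*, *nhr-275*, *nhr-57*, *nhr-232*, *nhr-235*, *nhr-156* and *nhr-22* kept their call in all 8 alternative fits and with each pair left out. Among tissue markers at matched stage, 7 of 8 body wall muscle markers and 5 of 9 intestine markers were lower and 2 intestine markers were higher. Of 10 neuron markers 3 were lower and 1 was higher. Of 8 epidermis markers 2 were higher, as were 2 of 10 germ line markers, and 0 of either list were lower. The summed intestine level ranged from 7189 to 8932 CPM (median 8052) in wild type and from 6763 to 8169 CPM (median 7535) in the mutant, no marker was at 0, and their part in the differences was not tested.

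*nhr-178* on chromosome V had the largest called difference, 1.65 ± 0.19 log2 (3.13-fold, adjusted p = 3.6e-05). In wild type its lowest, median and highest levels over 18 to 28 h were 0.383, 1.23 and 1.95 CPM. In the mutant they were 2.28, 4.05 and 6.06 CPM, so the mutant was higher in 11 of 11 pairs and the groups did not overlap. At the nearest values the counting intervals did overlap, with 0.936 to 3.59 CPM for 10 counts in wild type at 19 h and 1.21 to 3.90 CPM for 13 counts in the mutant at 26 h. *nhr-193* on the same chromosome ran from 2.08 to 3.93 CPM (median 2.87) in wild type and from 4.12 to 7.09 CPM (median 5.85) in the mutant, a difference of 0.90 ± 0.12 log2 without overlap. These were the 2 members with separate ranges and a higher mutant level, which 0.435% of all genes showed, and no member had separate ranges and a lower level (0.335%).

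*nhr-57*, which is induced through the hypoxia-inducible factor HIF-1, was higher by 0.89 ± 0.13 log2 (adjusted p = 0.000184). Its lowest, median and highest levels were 1.07, 4.30 and 7.91 CPM in wild type and 4.32, 7.52 and 11.3 CPM in the mutant, higher in 11 of 11 pairs with overlapping ranges. *nhr-232* had 8.42, 10.1 and 15.8 CPM in wild type and 12.6, 17.8 and 20.8 CPM in the mutant (0.59 ± 0.08 log2, adjusted p = 0.0001). It was higher in 10 of 11 pairs. *nhr-275* was scarce, with medians of 0.947 and 2.42 CPM, and was higher in 11 of 11 pairs (1.12 ± 0.21 log2).

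The lower members were *nhr-235* on chromosome II (-0.73 ± 0.13 log2), *nhr-156* (-0.70 ± 0.11) and *nhr-22* (-0.36 ± 0.06). *nhr-235*, the direct neighbour of *nhr-234*, ranged from 3.81 to 18.2 CPM in wild type and from 1.1 to 14.1 CPM in the mutant, and was lower in 9 of 11 pairs. *nhr-156* had medians of 4.97 and 3.61 CPM and *nhr-22* of 27.7 and 22.7 CPM, and each was lower in 10 of 11 pairs with overlapping ranges.

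**Figure D4:**
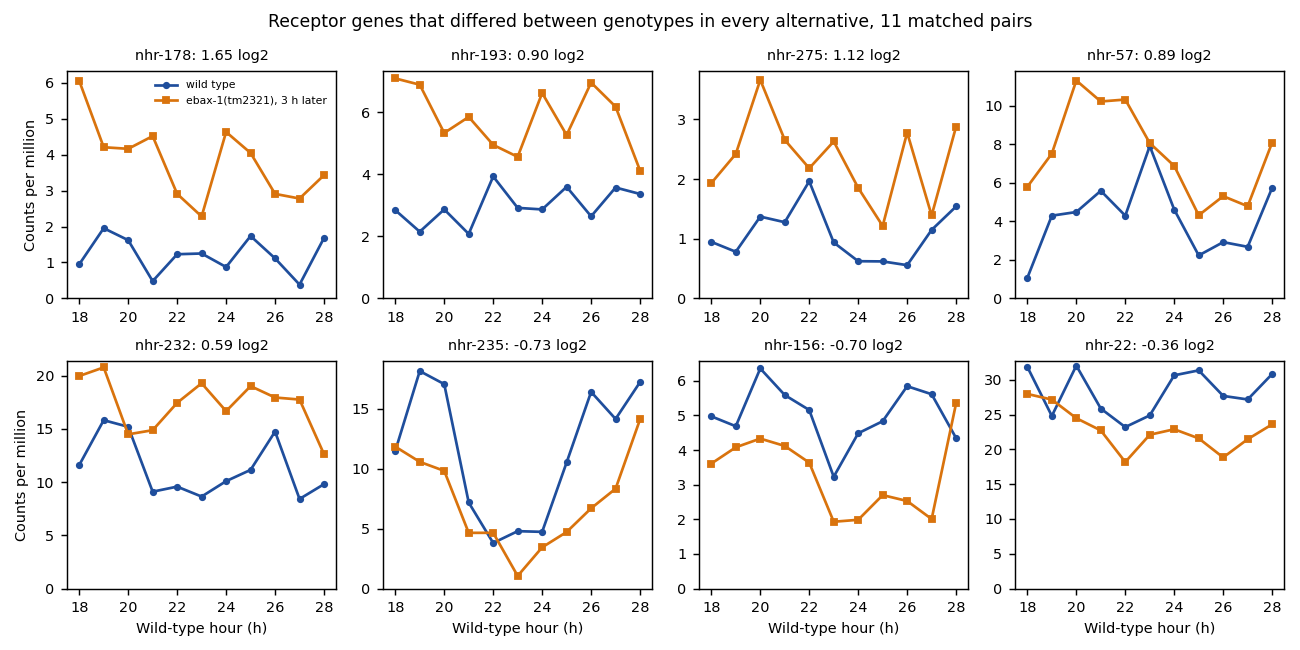
Levels (CPM) of the 8 members that kept their genotype call in all 8 alternative fits and with each pair left out, by wild-type hour (h), 1 library per point. The mutant (orange squares) is drawn 3 h earlier than it was sampled. The mutant curves of *nhr-178* and *nhr-193* stay above every wild-type value, while those of *nhr-235*, *nhr-156* and *nhr-22* lie mostly below wild type.

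Among the less stable calls, *nhr-73* was higher by 1.44 ± 0.35 log2, in 8 of 11 pairs, with medians of 0.498 and 1.99 CPM. Its call was lost by limma (0.41 log2), with a delay of 2 h (1.30 log2), with a matched-hour block (0.58 log2) and without the pair at wild-type 20, 21, 24, 25, 26, 27 or 28 h. *nhr-225* was higher by 1.04 ± 0.25 log2 from medians of 0.893 and 1.99 CPM, and *nhr-113* by 0.62 ± 0.16 log2 from 2.94 and 6.45 CPM, and both lost the call with a delay of 4 h. The call of *nhr-225* was also lost with the block, and that of *nhr-113* with a delay of 2 h and without the filter on low counts. Leaving out any pair from wild-type 22 h to 28 h ended the call of *nhr-225*, and any of these or the pair at 19 h or 21 h that of *nhr-113*. The other 8 higher members differed by 0.22 to 0.55 log2, and of these *nhr-7* and *nhr-19* lost the call with the block. Of the 16 higher members, 6 were rhythmic in at least 1 genotype, as were 27 of all members. Of the 14022 genes tested at matched stage, 10004 were tested for rhythm in both genotypes and rhythmic in neither. Whether higher members were more often rhythmic was not tested.

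At equal hours, with no allowance for the delay, 47 members were higher in the mutant (14.2% of all genes) and 3 were lower (13.6%), and the family's median difference was 0.19 log2 beside -0.00122 over all genes. This comparison uses the libraries of the matched one. All 16 members higher at matched stage were also higher at equal hours.

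By role, none of 10 receptors of fat and propionate metabolism was called at matched stage by edgeR, where 9.73% of all genes were higher and 9.16% lower. Of these receptors 4 had an unadjusted p under 0.05, DESeq2 called none (3 under 0.05) and limma called *nhr-49*. The limma fit also scaled libraries by total counts alone. In it 64.6% of all genes lay above 0, against 57.4% by edgeR. *nhr-49* differed by 0.12 ± 0.04 log2 (adjusted p = 0.0423), and its partners *nhr-80*, *nhr-13* and *nhr-66* by -0.13 ± 0.04, 0.04 ± 0.07 and -0.02 ± 0.04 log2. The receptor of this list with the largest difference was *nhr-62* (0.32 ± 0.14 log2, higher in 10 of 11 pairs, adjusted p = 0.0973). Of 7 tested NHR-49 target genes, 4 were higher and 2 lower. The higher ones were the palmitoyl desaturase gene *fat-5* (1.18 ± 0.07 log2, medians of 42.4 and 91.3 CPM, 11 of 11 pairs), the stearoyl desaturase gene *fat-6* (0.26 ± 0.04) and the fatty acid oxidation genes *hacd-1* (0.63 ± 0.06) and *ech-1.1* (0.56 ± 0.12). The acyl-CoA synthetase gene *acs-2* (-0.92 ± 0.16) and the carnitine palmitoyltransferase gene *cpt-5* (-0.62 ± 0.11) were lower. The stearoyl desaturase gene *fat-7* differed by -0.03 ± 0.07 log2 and was not called.

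The propionate shunt breaks down propionate when vitamin B12 is low and is turned on through NHR-10 and NHR-68. All 5 shunt genes were lower in the mutant. *ech-6* differed by -0.48 ± 0.02 log2 (medians of 1015 and 749 CPM), *hach-1* by -0.38 ± 0.04, *hphd-1* by -0.37 ± 0.02, *acdh-1* by -0.30 ± 0.05 and *alh-8* by -0.19 ± 0.03. Each kept its call in every alternative fit and with each pair left out. *nhr-10* differed by -0.15 ± 0.06 log2 (adjusted p = 0.109) and *nhr-68* by 0.08 ± 0.04 log2 (adjusted p = 0.138), neither of which passed the test. As given above, 5 of 9 intestine markers were also lower and 2 were higher, and their part in the lower shunt levels was not tested.

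**Figure D5:**
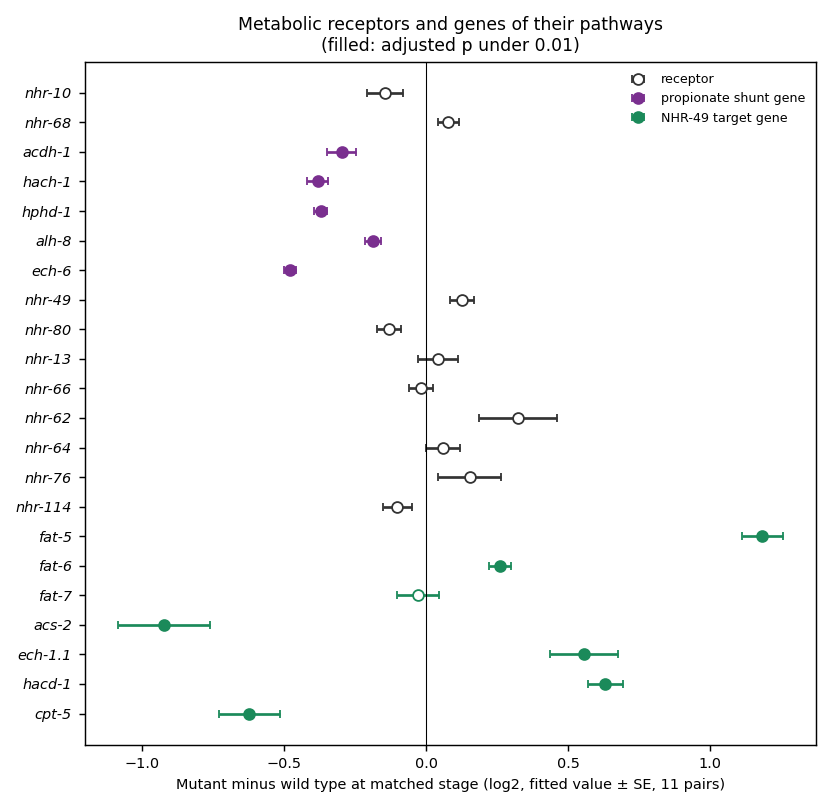
Mutant minus wild type at matched stage (log2, fitted value with SE bars, 11 pairs) for the 10 metabolic receptors (dark), propionate shunt genes (purple) and NHR-49 target genes (green). Filled points passed an adjusted p under 0.01. All receptors are open, from -0.15 for *nhr-10* to 0.32 for *nhr-62*, the 5 shunt genes lie between -0.48 and -0.19, and the NHR-49 targets run from -0.92 for *acs-2* to 1.18 for *fat-5*.

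Of the 6 receptors tied to stress, foreign compounds and pathogens, *nhr-57* and *nhr-14* (0.22 ± 0.06 log2, 11 of 11 pairs) were higher. Over all genes, 9.73% were higher and 9.16% lower at matched stage, which holds beside this list and those that follow. The call of *nhr-14* was lost without the filter on low counts, with a delay of 4 h, and without any one pair at wild-type 18, 19, 20, 21, 23, 24 or 25 h. The other 4 were not called. These were *nhr-8* (0.16 ± 0.06 log2), a regulator of resistance to foreign compounds, *nhr-45* (0.05 ± 0.03), *nhr-86* (0.02 ± 0.06), which responds to a bacterial phenazine, and *nhr-176* (-0.04 ± 0.13). Of the 6 tested members with counterparts outside nematodes and the 6 tested members with developmental roles, none was called between genotypes at matched stage by edgeR, DESeq2 or limma (unadjusted p under 0.05 by edgeR for 2 and 1 of them), with 3 receptors in both lists. The largest difference in both lists was that of *nhr-6* (-0.37 ± 0.10 log2, lower in 8 of 11 pairs, adjusted p = 0.016), while *nhr-91* had -0.0025 ± 0.13 log2.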

How the data were processed

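PolyA RNA libraries were sequenced as paired-end reads with a stranded kit. The submitters' processing notes name the aligner HISAT2 (its version is not given in the sources used here) and the genome build ce10. The deposited raw counts per gene were made by the authors with QuasR from exons of the matching WormBase annotation, with reads counted on the opposite strand. The deposited log2 values were recomputed from the counts by library scaling and a pseudocount of 8, agreed within 0.0005 and were otherwise not used. No other column of per-sample values was left unused (0). Gene names came from the name table, and 14 further nhr-number names found only in RefSeq were pseudogenes. Exon lengths and chromosomes came from the WBcel235 annotation. Coordinates were not used here because the builds differ.

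Tests used edgeR 4.0.16 (quasi-likelihood, TMM scaling, filterByExpr) in R 4.3.3 on all genes, with Benjamini-Hochberg adjusted p under 0.01. Rhythm and linear terms were fitted to 14 libraries per genotype, genotype differences to 22 libraries with cubic B-splines of 6 components, and differences of rhythm or slope to all 28. The tests of rhythm, linear change, mean genotype difference and rhythm difference were tried on simulated counts. The changed genes there had higher mean counts than the minimum set for members. The tests of slope difference and of any difference were not tried in this way. Libraries were mapped to groups by the labels, with 1 per hour, so p-values measure scatter of these libraries only. CPM are shares of a library, and intervals and floors (3 counts, or 95% exact binomial) cover counting error only. Alternatives were DESeq2 1.42.0, limma 3.58.1 on log2 values, RLE or total-count scaling, no filter, other periods, delays and thresholds, a matched-hour block, and each hour or pair left out. Members and gene lists were chosen with earlier results of these data known. The text names the members with the largest called amplitude, change or genotype difference, those with the highest CPM per kilobase, those nearest the count minimum, and members of the role lists. Of the role lists, *nhr-111*, *nhr-239* and *nhr-2* were not among the members or the tested genes, *fmo-2*, *hsd-1* and *odr-7* were too rare to be tested, and *mdt-12* was not matched by name.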

Additional observations from a re-analysis of the deposited data

How the results depend on the processing

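With a period of 6.5 h, 10 (wild type) and 14 (mutant) members were rhythmic, and 2 fell in the mutant. With an amplitude of at least 1 log2 the rhythmic counts were 9 and 6, and with a change of at least 0.5 log2 the falling counts were 32 in wild type and 25 in the mutant. Over the matched windows alone, 4 members fell and 0 rose in wild type. With a delay of 4 h, 9 members were higher in the mutant. The test of any difference called 7 members with DESeq2, 5 with limma, 17 with a delay of 2 h and 12 with a delay of 4 h. DESeq2 called 1 member with a slope difference. Except for falls over the matched windows, shares of all genes under the settings of this paragraph are not given. The counts therefore show how the calls move with the setting and cannot be set against all genes. With each hour or pair left out, the rhythmic members numbered 15 to 22 (wild type) and 20 to 26 (mutant), falling members 8 to 16 and 4 to 6, rising members 2 to 2 and 1 to 2, higher members 7 to 13, lower members 3 to 4, and members with any difference 0 to 2. With each mutant hour left out, the mutant change of *nhr-73* ranged from -1.15 to 0.058 log2 (0.058 without 31 h) and that of *nhr-234* from -0.21 (without 31 h) to 1.84 log2. Where no cause is named, the cause was not tested. Total-count scaling moved the family's matched-stage median from 0.095 to 0.14 log2 and that of all genes from 0.036 to 0.081. Replicate numbers do not pair samples here, since they only name hours, and the matched-hour block changed the family's matched-stage median to 0.092 log2. The block ended 4 of the 16 higher calls (*nhr-7*, *nhr-19*, *nhr-73*, *nhr-225*) and none of the 3 lower ones, and it added 2 calls (*nhr-211*, *nhr-234*). Of 19 genotype calls, 8 held throughout, as did 9 of 17 wild-type and 13 of 25 mutant rhythm calls. Many members had under 10 CPM, where counting intervals were wide (5.30 to 9.07 CPM for 57 counts), and how far depth limited the calls was not tested.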

Other observations

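Nuclear receptors with other names and genes around them were also measured. *daf-12*, the receptor for dafachronic acid that times larval development, fell in both genotypes, by -1.66 ± 0.18 log2 (wild type) and -1.99 ± 0.07 log2 (mutant). It had 140 CPM at 18 h and 48.3 CPM at 31 h in wild type, and 260 and 77.7 CPM at the same hours in the mutant. *unc-55*, a counterpart of the vertebrate COUP-TF receptors that acts in motor neurons, fell by -1.72 log2 (wild type) and -2.25 log2 (mutant). *daf-9*, which makes the ligand of DAF-12, was higher in the mutant at matched stage by 0.50 ± 0.05 log2 (medians of 18.2 and 25.7 CPM, 11 of 11 pairs, edgeR adjusted p = 2.59e-05), whereas *daf-12* differed by 0.14 ± 0.04 log2 (adjusted p = 0.012) and was not called. *strm-1*, a methyltransferase gene that limits dafachronic acid, was rhythmic in wild type and mutant, with amplitudes of 2.07 log2 (wild type) and 1.64 log2 (mutant). Of 3 tested coregulator genes, *din-1* was higher in the mutant by 0.16 ± 0.04 log2, a call lost without the filter on low counts and without the pair at wild-type 18, 21, 22, 23, 24 or 25 h, and the Mediator gene *mdt-15* differed by 0.06 ± 0.03 log2 and was not called.

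The receptors set aside by the rule behaved as follows. *nhr-23*, a regulator of molting, had a rhythm in each genotype, with amplitudes of 1.12 and 1.02 log2 and fitted peaks at 20.7 h (wild type) and 23.5 h (mutant). *nhr-25* was called rhythmic in the mutant (amplitude 0.64 log2, fitted peak at 20.2 h) and not in wild type (0.75 log2, adjusted p = 0.0243), where it fell by -2.32 log2, and *nhr-85* was called in neither genotype (amplitudes of 0.62 and 0.33 log2).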
